A study of Mus musculus with 8 samples.

Results

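Released cells are mouse embryonic stem cells (ESCs) that spent 60 h in the MYC inhibitor 10058-F4 and then 48 h without it. They were compared with cells kept for 60 h in DMSO, the solvent, to see which transcripts still differed once the inhibitor had been removed. The comparison rests on 6 of the 8 arrays of the series, 3 of released cells and 3 of DMSO cells. The other 2 arrays are of cells still in the inhibitor, and their values stand beside the results to show where a transcript lay when the inhibitor was taken away. All cells of all groups grew on gelatine without feeders or serum in 2i medium with leukaemia inhibitory factor, PD0325901 at 1 μM, which inhibits MEK, and CHIR99021 at 3 μM, which inhibits GSK3. 10058-F4, a small molecule that interferes with the pairing of MYC and its partner MAX, was given at 64 μM. The labels name no cell line, so it is not stated here whether the cells were 1 line. No label tells whether the replicates of a group were separate cultures, and the p-values therefore measure the spread between these arrays, which could be technical. The released cells were also 48 h longer in culture than the DMSO cells, and an effect of this time cannot be told apart from an effect of the inhibitor and its removal.

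MYC proteins are transcription factors that bind DNA together with MAX and drive genes of growth, ribosome production, metabolism and the cell cycle. Naive ESCs with little MYC activity are known to slow down and to enter a state like that of embryos in diapause, a pause in development that can be reversed. In 2i medium the inhibited MEK and GSK3 kinases hold back differentiation and keep the transcription factors of naive pluripotency at a high level. Cells of this kind use glycolysis heavily, and lactate dehydrogenase and several other glycolytic enzymes are known targets of both MYC and the low-oxygen factor HIF.

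Each array gives a log2 value per probe set, and each gene is represented by 1 probe set. Of the 18193 genes tested, 1576 passed a limma adjusted p of 0.05 between released and DMSO cells, which is 8.66% of genes. The called genes comprised 847 that were higher (4.66%) and 729 that were lower (4.01%) in released cells. At an unadjusted limma p under 0.05, 4114 of the 18193 genes differed, and unadjusted counts given below stand against that number. For all 1576 the 3 released arrays lay outside the range of the 3 DMSO arrays, and this was so for 28.6% of all genes tested. The same fit called 41.5% of genes between inhibitor-treated and DMSO cells and 41.9% between released and inhibitor-treated cells. These comparisons share arrays, so only their own values are given side by side. Most differences were small. The median absolute log2 difference of the called genes was 0.37, and 29 rises and 26 falls reached 2-fold. The balance of higher and lower genes was not stable, since it turned with median centring (824 higher and 845 lower) and without released replicate 2 (498 and 502). The number of calls was over 1.5 times smaller without released replicate 1 (1008) or replicate 2 (1000). Among higher genes this was also so without DMSO replicate 1 (535), and among lower genes without DMSO replicate 2 (457) or released replicate 1 (432). Pearson correlations across genes lay between 0.9977 and 0.9982 within the DMSO and the released group and between 0.9954 and 0.9962 across them. The 3′ minus 5′ difference of the Gapdh control probe sets, a sign of RNA integrity, ran from -0.13 to -0.108 on DMSO arrays and from -0.133 to -0.117 on released arrays.

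**Figure D1:**
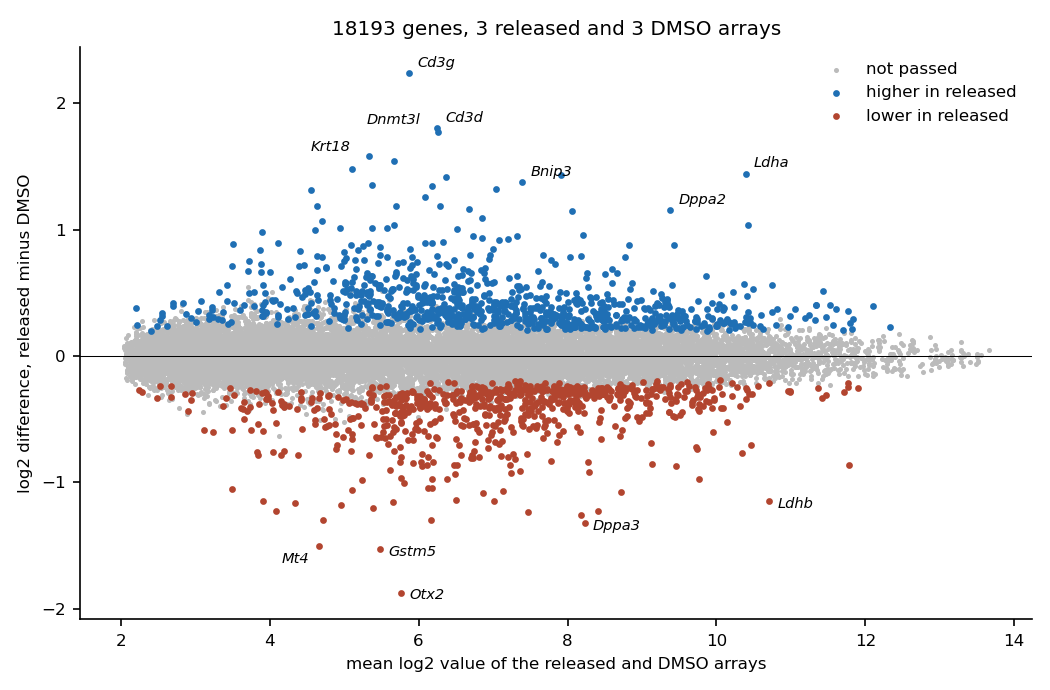
Each point is 1 of 18193 genes, with its mean log2 value over the 6 released and DMSO arrays on the horizontal axis and its log2 difference (released minus DMSO) on the vertical axis. Blue points (847) were higher and red points (729) lower at a limma adjusted p of 0.05, and grey points did not pass; Cd3g lies highest at 2.24 and Otx2 lowest at -1.88.

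Differences of single genes are given below as log2 values (released minus DMSO) ± moderated standard error with the limma adjusted p over all genes. Unless a limit is named beside it, a gene described as higher or lower passed the same threshold under all 18 alternatives that keep it. These include leaving out any 1 array, the mean of all probe sets of the gene, and its probe set of lowest spread. The mean contains the probe set used here, and the one of lowest spread can be the same. Neither is therefore an independent check by another probe set. Of the 171 named genes that passed, 100 passed under all 18. Leaving out either inhibitor array gave the same calls as fitting the released and DMSO arrays alone. A count of alternatives therefore includes that result more than once.

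Transcripts of the core pluripotency factors did not pass the test between released and DMSO cells. Pou5f1, which encodes OCT4, read 12.23, 12.12 and 12.13 on the DMSO arrays and 12.23, 12.41 and 12.31 on the released arrays, and its difference did not pass (0.16 ± 0.065; limma adjusted p = 0.179). Sox2 (0.01 ± 0.066), Nanog (0.10 ± 0.052), Klf4 (-0.11 ± 0.068), Esrrb (0.06 ± 0.053) and Zfp42 (-0.04 ± 0.065), further transcription factor genes of naive pluripotency, did not pass either (limma adjusted p from 0.29 to 0.945). All lay above 9.9 on every DMSO and released array. Under 1 of the 21 alternatives run, Pou5f1 did pass, and so did Nanog under 1. Of the 16 measured markers of fibroblasts and feeder cells, 0 were higher and 0 lower by the limma test (1 and 1 at an unadjusted p under 0.05). That is 0% called, against 8.66% of all genes, and 13 of the 16 had a released mean below 5. A list this small with mostly low values does not show whether such cells were present. Differences of genes near the level of the bacterial Trpn controls, which was 2.15 to 2.95 over the arrays, are compressed. In RNA from a whole culture, a lower value from fewer cells of a kind and one from less RNA per cell cannot be told apart.

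The largest rises were those of the T cell receptor subunit genes Cd3g and Cd3d. Cd3g read 4.80, 4.81 and 4.63 on the DMSO arrays, 4.94 and 4.65 with the inhibitor, and 6.93, 7.11 and 6.93 on the released arrays. It was low on all arrays but the released ones, where it was 4.72-fold higher than in DMSO cells (2.24 ± 0.091; limma adjusted p = 5.33e-06). Cd3d read 5.52, 5.26 and 5.25 with DMSO, 5.64 and 5.68 with the inhibitor, and 7.05, 7.26 and 7.15 after release, 3.49-fold above DMSO (1.81 ± 0.085; limma adjusted p = 8.72e-06). Cd3e, the third CD3 gene, lies next to them on mouse chromosome 9 and rose by less (0.38 ± 0.080; limma adjusted p = 0.0172). Its call ended without DMSO replicate 2 (0.0623) or 3 (0.0584) and without released replicate 1 (0.0513) or 2 (0.0589). In GRCm38.p6 the RefSeq genes span chr9:44969572-44980431 for Cd3g, chr9:44981769-44987052 for Cd3d and chr9:44998735-45009663 for Cd3e.

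Most other lymphocyte genes did not pass. The T lymphocyte marker list had a median of 0.13 against 0.0018 over all genes. Of its 13 measured members, 5 were higher and 0 lower (38.5% called, against 8.66% of all genes). Beside the CD3 genes these were Lat, an adaptor of T cell signalling (0.44 ± 0.080; limma adjusted p = 0.00912), and Cd5 (0.42 ± 0.11; 0.0436), whose call ended under 10 of the 17 alternatives that measure it. Cd247, which encodes the zeta chain that joins the CD3 chains in the receptor, differed by -0.16, Cd2 by -0.23, Cd8a by -0.11 and Cd4 by 0.13, and none of these passed. Ptprc, the pan-leukocyte gene for CD45, had means of 2.62 with DMSO and 2.75 after release, within the range of the Trpn controls. The mean log2 value of the whole list was 4.41 to 4.47 on DMSO arrays, 4.35 to 4.39 with the inhibitor and 4.78 to 4.89 on released arrays, and 7 of the 13 released means were below 5.

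Other large rises divided into genes that were already high in the inhibitor and genes that were not. Dnmt3l, the catalytically inactive partner of the de novo DNA methyltransferases, read 5.39, 5.45 and 5.27 with DMSO, 7.0 and 7.18 with the inhibitor, and 7.26, 7.09 and 7.07 after release. Its level after release was 3.42-fold above DMSO (1.77 ± 0.080; limma adjusted p = 8.72e-06) and did not pass against the inhibitor-treated cells (0.05 ± 0.089; limma adjusted p = 0.673). Tmem181a showed the same order of groups, at 7.19, 7.21 and 7.19 with DMSO, 8.62 and 8.57 with the inhibitor, and 8.53, 8.77 and 8.58 after release (1.43 ± 0.070). Krt18, a keratin of simple epithelia, read 4.26, 4.75 and 4.62 with DMSO, 9.59 and 9.49 with the inhibitor, and 5.90, 6.28 and 6.20 after release. On withdrawal it fell by 3.41 on the log2 scale and still stood 3.00-fold above DMSO (1.59 ± 0.13; limma adjusted p = 0.000116).

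A further set was at or below the DMSO level in the inhibitor and above it after release. Inhbb, the activin B subunit gene, read 4.62, 4.83 and 4.63 with DMSO, 4.80 and 4.69 with the inhibitor, and 6.13, 6.11 and 5.90 after release (1.36 ± 0.085; limma adjusted p = 2.91e-05). A2m, encoding the protease inhibitor alpha-2-macroglobulin, was lower with the inhibitor (4.61 and 4.67) than with DMSO (5.60, 5.67 and 5.72) and highest after release at 7.10, 6.83 and 7.31 (1.42 ± 0.11). Porcn, the acyltransferase that Wnt ligands need for secretion, fell from 5.27, 5.67 and 5.42 with DMSO to 4.11 and 4.07 in the inhibitor and reached 6.58, 6.84 and 6.70 after release (1.26 ± 0.10). The oocyte homeobox gene Obox6 differed from DMSO by -0.29 in the inhibitor and stood above it after release (1.32 ± 0.089). Igf2, Bach2, Emp1 and Cxcl14 stood among the 15 largest rises as well (1.55, 1.48, 1.34 and 1.31), but their calls ended with the probe set of lowest spread (limma adjusted p of 0.959, 0.793, 0.769 and 0.132).

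**Figure D2:**
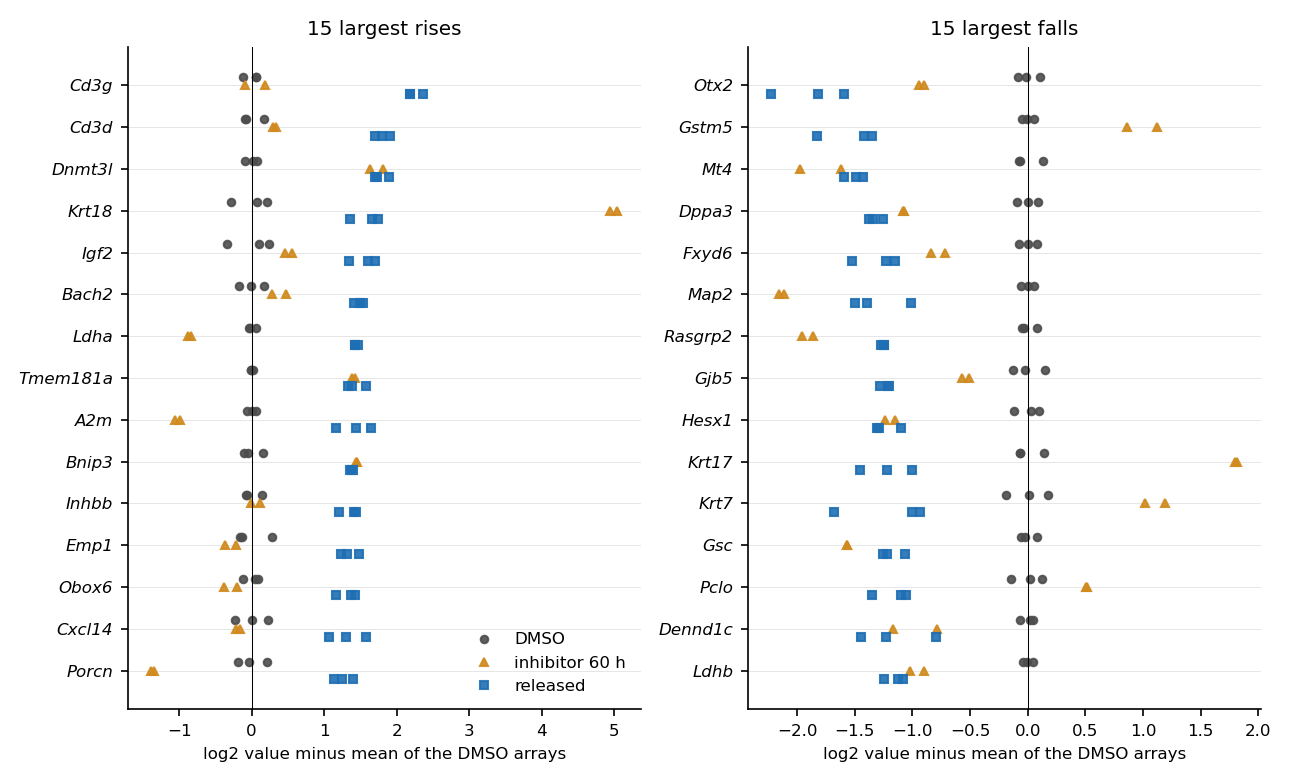
The 15 largest rises (left) and 15 largest falls (right) between released and DMSO cells, each array drawn as its log2 value minus the mean of the 3 DMSO arrays. Circles are DMSO, triangles inhibitor-treated and squares released arrays; released squares stand apart from the DMSO circles in every gene shown, while the triangles lie at DMSO for Cd3g, beside the released arrays for Dnmt3l, and on the far side of DMSO for Ldha, A2m, Porcn, Gstm5, Krt17 and Krt7.

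The largest fall was that of Otx2, a homeobox factor of the formative and primed epiblast and of the anterior brain. Otx2 read 6.61, 6.80 and 6.68 with DMSO, 5.75 and 5.80 with the inhibitor, and 4.47, 5.11 and 4.88 after release, so that its level went down at each step. The difference from DMSO was 3.67-fold (-1.88 ± 0.14; limma adjusted p = 5.68e-05), and that from the inhibitor-treated cells passed too (-0.95 ± 0.15; limma adjusted p = 0.000599). The anterior homeobox gene Hesx1 fell from 8.90, 9.11 and 9.05 to 7.71, 7.73 and 7.92 (-1.23 ± 0.080), after 7.78 and 7.86 in the inhibitor. Gsc, a homeobox gene of the embryonic organizer, fell from 5.49, 5.52 and 5.62 to 4.29, 4.32 and 4.48 (-1.18 ± 0.068).

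Dppa3, also called Stella, which protects DNA methylation marks in the early embryo, read 8.80, 8.98 and 8.89 with DMSO, 7.81 and 7.82 with the inhibitor, and 7.55, 7.51 and 7.64 after release (-1.33 ± 0.065; limma adjusted p = 8.72e-06). It had not moved back towards DMSO on withdrawal and lay lower still than in the inhibitor (-0.25 ± 0.072; limma adjusted p = 0.0207). Mt4, a metallothionein gene, likewise stayed at 3.81, 3.92 and 3.98 after release, against 5.35, 5.54 and 5.34 with DMSO and 3.79 and 3.43 with the inhibitor (-1.51 ± 0.099). Rasgrp2, an activator of RAP GTPases, had recovered in part, at 8.77, 8.89 and 8.75 with DMSO, 6.94 and 6.85 with the inhibitor, and 7.53, 7.56 and 7.55 after release (-1.26 ± 0.060). Fxyd6 (-1.30 ± 0.097), which encodes a regulator of the sodium pump, and the connexin gene Gjb5 (-1.23 ± 0.075) were lower too. Map2, Krt17, Pclo and Dennd1c were among the 15 largest falls, but their calls ended with the probe set of lowest spread (limma adjusted p of 0.979, 0.505, 0.812 and 0.496).

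Glycolytic genes had the largest share of higher members among the 45 gene lists described here. Of the 25 measured genes of glycolysis and lactate metabolism, 10 were higher and 2 lower in released cells, with a median of 0.15, against 4.66% and 4.01% of all genes and a median of 0.0018. Leaving out any 1 array gave 10 to 11 higher and 2 lower. Ldha, the lactate dehydrogenase subunit that favours lactate formation, read 9.65, 9.74 and 9.63 with DMSO, 8.84 and 8.79 with the inhibitor, and 11.14, 11.11 and 11.10 after release. The 3 groups did not overlap, and released cells were 2.72-fold above DMSO cells (1.44 ± 0.056; limma adjusted p = 5.33e-06) and 4.92-fold above inhibitor-treated cells. Ldhb, the subunit that favours pyruvate formation, moved the other way. It read 11.24, 11.33 and 11.27 with DMSO, 10.38 and 10.26 with the inhibitor, and 10.16, 10.04 and 10.20 after release, 2.22-fold below DMSO (-1.15 ± 0.065; limma adjusted p = 2.1e-05).

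The other members that rose did so by less than Ldha. Pfkl, a phosphofructokinase isoform, read 6.22, 6.00 and 6.06 with DMSO, 5.62 and 5.60 with the inhibitor, and 7.35, 7.24 and 7.18 after release (1.16 ± 0.073; limma adjusted p = 2.91e-05). Pfkp, the platelet isoform of the same enzyme, was 10.01, 10.11 and 10.14 with DMSO, 10.93 and 10.80 with the inhibitor and 10.63, 10.71 and 10.63 after release (0.57 ± 0.064). Mpc1, a subunit of the carrier that brings pyruvate into mitochondria, rose by 0.62 ± 0.079. The aldolases Aldoa (0.39 ± 0.056) and Aldoc (0.51 ± 0.095), triosephosphate isomerase Tpi1 (0.37 ± 0.054), phosphoglycerate kinase Pgk1 (0.36 ± 0.058), pyruvate kinase Pkm (0.41 ± 0.062) and the pyruvate dehydrogenase kinase Pdk1 (0.35 ± 0.064) made up the 10, and were named after their values were seen. Hk1, a hexokinase, was lower at 8.54, 8.57 and 8.58 against 9.06, 8.97 and 9.09 with DMSO (-0.48 ± 0.055; limma adjusted p = 0.000793). In the inhibitor Tpi1 (-0.92), Pkm (-0.56) and Pdk1 (-1.30) had been below DMSO. The list as a whole was mixed there. Of its 25 measured genes, 6 were higher and 9 lower than with DMSO by limma, with a median of -0.064. Of all genes, 41.5% were called in that comparison. Of 41 measured genes of oxidative phosphorylation, 0 were higher and 1 was lower in released cells by limma (2.44% called, against 8.66% of all genes). At an unadjusted limma p under 0.05 the counts were 0 and 10, against 4114 of all 18193 genes in either direction. The median of this list was -0.071. The lower gene was Ndufa4, a subunit of the respiratory chain, at 11.22, 11.26 and 11.29 against 11.61, 11.65 and 11.52 (-0.34 ± 0.059; limma adjusted p = 0.00752).

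The low-oxygen response list shared only Pfkfb4, which did not pass, with the glycolysis list. Of its 24 measured genes, 7 were higher, 1 lower and 16 did not pass (33.3% called, against 8.66% of all genes). Their median was 0.13, and leaving out any 1 array gave 7 to 8 higher and 1 to 2 lower. Bnip3, a mitophagy receptor, read 6.59, 6.85 and 6.65 with DMSO, 8.14 and 8.15 with the inhibitor, and 8.08, 8.10 and 8.05 after release. It was 2.60-fold above DMSO (1.38 ± 0.072; limma adjusted p = 1.26e-05), and its difference from the inhibitor-treated cells did not pass (-0.07 ± 0.081; limma adjusted p = 0.53). Ankrd37 was below DMSO in the inhibitor (3.78 and 3.57 against 4.40, 4.67 and 4.74) and above it after release at 5.26, 5.25 and 5.42 (0.71 ± 0.10). Vegfa, the vascular growth factor, remained above DMSO at 6.74, 6.90 and 6.85 against 6.21, 6.40 and 6.26 (0.54 ± 0.070), well under its level of 8.69 and 8.74 in the inhibitor. Epas1, which encodes the HIF-2 alpha subunit (0.35 ± 0.055), Narf (0.47 ± 0.075), and the collagen hydroxylase genes Plod2 (0.45 ± 0.080) and P4ha1 (0.35 ± 0.069) rose too. The exception was Selenbp1, a selenium-binding protein gene, which was lower (-0.43 ± 0.075; limma adjusted p = 0.00784).

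**Figure D3:**
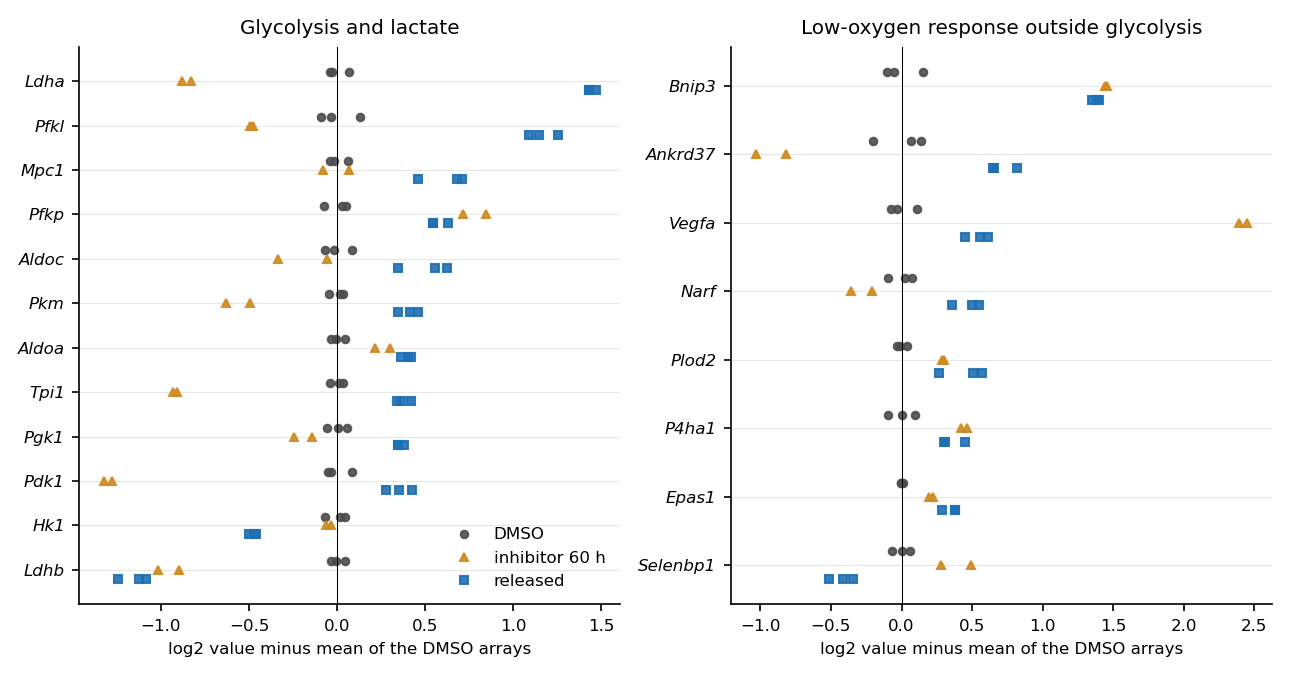
Members of the glycolysis and lactate list (left) and of the low-oxygen list (right) that passed the test, each array drawn as its log2 value minus the mean of the 3 DMSO arrays. Squares (released) lie to the right of the circles (DMSO) in 10 glycolytic and 7 low-oxygen genes and to the left for Hk1, Ldhb and Selenbp1; triangles (inhibitor, 60 h) lie left of DMSO for Ldha and beside the released arrays for Bnip3.

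The 4 largest rises of these lists are Ldha, Bnip3, Pfkl and Ankrd37. Their promoter windows, together with those of Cd3g and Cd3d, were searched for the short sequences ACGTG and CACGTG. The windows are the 250 bases before a start site listed in RefSeq, build GRCm38.p6, written 5′ to 3′ on the gene's strand. Capitals mark matches on either strand to ACGTG, 1 form of the core of the low-oxygen response element read by HIF. The form GCGTG was not searched or marked, so a window with no match can still hold such a core. CACGTG, the E-box bound by MYC and MAX, contains ACGTG. Ldha has 2 listed windows, of which the first, chr7:46845554-46845803 on the plus strand, holds 3 marked stretches and 2 copies of CACGTG; the other holds none.
Ldha: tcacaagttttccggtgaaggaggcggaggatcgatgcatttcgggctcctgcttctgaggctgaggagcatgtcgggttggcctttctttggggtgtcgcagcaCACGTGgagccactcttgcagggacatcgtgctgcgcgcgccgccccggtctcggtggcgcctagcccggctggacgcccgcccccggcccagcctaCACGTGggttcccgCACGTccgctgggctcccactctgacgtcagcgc
Bnip3, chr7:138909507-138909756 on the minus strand, holds 1 stretch, a CACGTG.
Bnip3: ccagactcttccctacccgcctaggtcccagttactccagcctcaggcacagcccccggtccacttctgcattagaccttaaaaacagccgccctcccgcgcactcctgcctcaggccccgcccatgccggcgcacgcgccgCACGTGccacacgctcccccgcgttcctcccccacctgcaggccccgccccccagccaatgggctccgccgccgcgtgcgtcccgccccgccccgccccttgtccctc
Pfkl, chr10:78009808-78010057 on the minus strand, holds no match in this window.
Pfkl: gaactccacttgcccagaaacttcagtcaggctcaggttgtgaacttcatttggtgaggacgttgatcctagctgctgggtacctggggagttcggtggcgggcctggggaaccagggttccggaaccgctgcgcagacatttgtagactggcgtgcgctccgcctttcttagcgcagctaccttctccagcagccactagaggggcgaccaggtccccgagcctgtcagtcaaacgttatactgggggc
Ankrd37, chr8:45999851-46000100 on the minus strand, holds 2 stretches and no CACGTG.
Ankrd37: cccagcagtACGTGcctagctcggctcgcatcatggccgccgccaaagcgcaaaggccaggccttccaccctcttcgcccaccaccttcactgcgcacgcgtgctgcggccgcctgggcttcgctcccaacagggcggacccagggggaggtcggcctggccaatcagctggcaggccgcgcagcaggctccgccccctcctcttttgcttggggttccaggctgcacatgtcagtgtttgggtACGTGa
Cd3g, chr9:44980432-44980681 on the minus strand, and Cd3d, chr9:44981536-44981785 on the plus strand, lie back to back and hold no match; the Cd3d window reaches into the gene span given above, whose start differs from the listed start site.
Cd3g: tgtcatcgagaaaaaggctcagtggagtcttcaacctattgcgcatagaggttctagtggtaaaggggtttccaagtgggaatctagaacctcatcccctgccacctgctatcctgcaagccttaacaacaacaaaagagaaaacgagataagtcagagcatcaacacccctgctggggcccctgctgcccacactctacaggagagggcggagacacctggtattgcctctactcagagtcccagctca
Cd3d: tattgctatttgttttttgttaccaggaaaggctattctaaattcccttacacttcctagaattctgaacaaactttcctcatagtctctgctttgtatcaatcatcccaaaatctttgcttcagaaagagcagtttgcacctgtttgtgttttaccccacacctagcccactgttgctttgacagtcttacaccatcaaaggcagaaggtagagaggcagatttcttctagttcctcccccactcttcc
ACGTG on either strand stood in 16.6% of all 32851 windows of this length and CACGTG in 6.02%. Counted by gene, ACGTG was present in 22.5% of the 14452 tested genes that have a window. Among measured glycolysis genes with a window it was present in 13 of 24, and among those higher in released cells in 4 of 10. For the low-oxygen list the counts were 12 of 20 measured and 4 of 5 higher genes. A match is a description of the letters and does not show that a factor was bound.

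The list of naive and general pluripotency genes, which includes the core factors above, held 6 higher and 3 lower of 35 measured. That is 25.7% called, against 8.66% of all genes, and the median was 0.052. Dppa2, which together with its neighbour Dppa4 opens chromatin at developmental and early embryonic genes, read 8.90, 8.75 and 8.76 with DMSO, 8.34 and 8.32 with the inhibitor, and 9.92, 10.02 and 9.93 after release. Dppa2 was 2.22-fold above DMSO (1.15 ± 0.062; limma adjusted p = 1.51e-05), while Dppa4 rose by 0.38 ± 0.076, a call that ended without DMSO replicate 1 (0.0513). Both lie on chromosome 16, at chr16:48310274-48319513 for Dppa2 and chr16:48283735-48294292 for Dppa4. The nuclear receptor gene Nr0b1 (0.51 ± 0.067), Zfp57, whose product maintains imprints (0.46 ± 0.065), and the homeobox gene Gbx2 (0.65 ± 0.099) were higher. Gbx2 had been far below DMSO in the inhibitor, at 3.23 and 3.43 against 6.07, 5.70 and 5.89, and reached 6.48, 6.49 and 6.63 after release. Besides Dppa3, Socs3, a feedback inhibitor of LIF signalling, was lower at 9.35, 9.37 and 9.37 against 10.04, 10.18 and 10.04 (-0.72 ± 0.059). Lin28a, which blocks maturation of let-7, was lower at 7.10, 6.95 and 7.16 against 7.94, 7.83 and 7.76 (-0.77 ± 0.084), partway back from 4.90 and 5.12 in the inhibitor. The last of the higher genes was Prdm14 (0.25 ± 0.062; limma adjusted p = 0.0394), whose call ended under 9 of the 18 alternatives.

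The list of formative and primed genes held 8 higher and 2 lower of 24 measured (41.7% called, against 8.66% of all genes), with a median of 0.097. Dnmt3l and Krt18 had its largest rises and the ETS factor genes Etv4 and Etv5 were higher too, whereas Otx2 fell and Fgf5, a marker of the formative epiblast, differed by 0.03 and did not pass. Etv4 read 4.76, 4.77 and 4.63 with DMSO and 5.25, 5.40 and 5.23 after release (0.57 ± 0.073), and Etv5 10.49, 10.66 and 10.55 against 10.92, 10.92 and 10.91 (0.35 ± 0.062). Leaving out any 1 array gave 5 to 8 higher genes. Grhl2 (0.25 ± 0.061; limma adjusted p = 0.0345) and Cdh2 (0.38 ± 0.091; 0.032) were near the threshold, and their calls each ended under 8 alternatives. Pou3f1 (0.59) and Sox4 (-0.59) passed, but with the probe set of lowest spread they did not (limma adjusted p of 0.738 and 0.591).

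**Figure D4:**
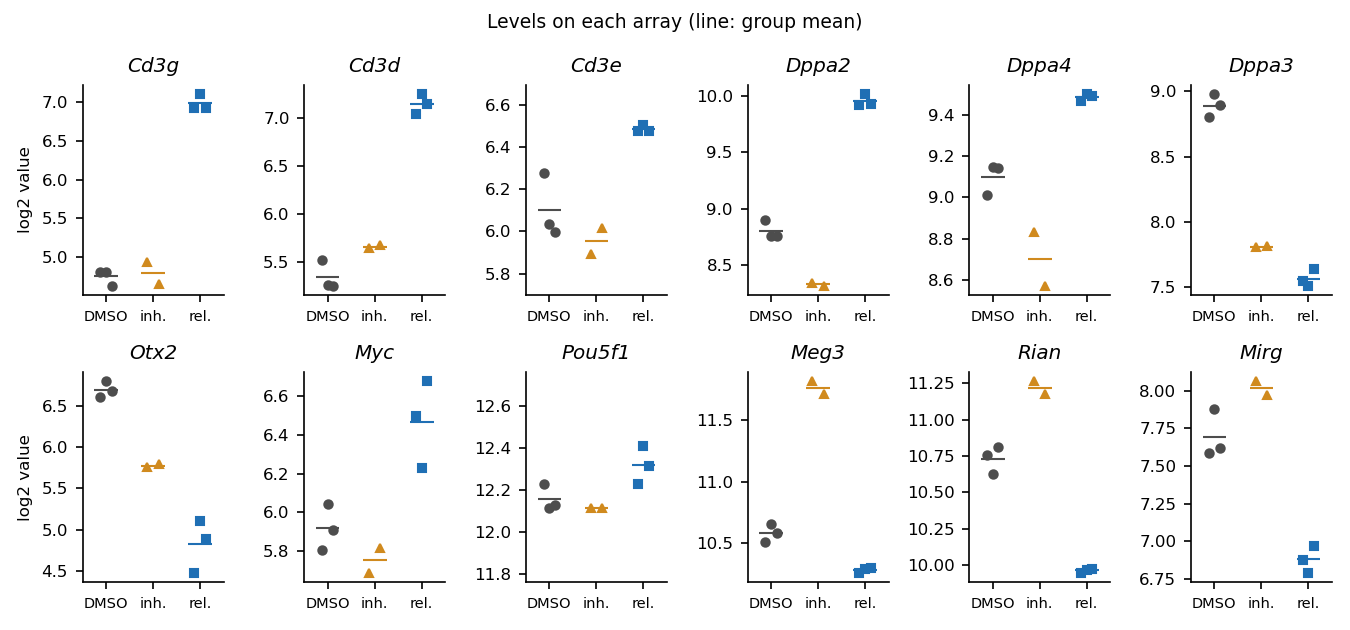
Log2 values of 12 genes on each array of DMSO, inhibitor-treated (inh.) and released (rel.) cells, with a line at each group mean and a vertical axis scaled for each gene. Cd3g and Cd3d were high only on released arrays, Dppa2 and Dppa4 were lowest with the inhibitor and highest after release, Dppa3 and Otx2 stayed below DMSO, Meg3, Rian and Mirg were highest with the inhibitor and lowest after release, and Pou5f1 did not pass.

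Feedback targets of FGF and ERK signalling were more often higher than lower, with 8 and 1 of 26 measured (34.6% called, against 8.66% of all genes). Their median was 0.099. Dusp6, the ERK phosphatase, read 5.87, 5.83 and 5.70 with DMSO, 4.79 and 4.82 with the inhibitor, and 6.35, 6.56 and 6.54 after release (0.68 ± 0.075; limma adjusted p = 0.000592). Etv4 and Etv5 belong to this list too. The exception was Dusp1, a phosphatase of stress kinases, at 9.50, 9.47 and 9.50 against 9.84, 9.91 and 9.81 (-0.37 ± 0.062). Spred1 and Spred2, membrane inhibitors of RAS signalling, passed (0.61 and 0.30). Spred1 did not pass with the probe set of lowest spread (limma adjusted p = 0.847), nor Spred2 with the mean of its probe sets (0.0686), without DMSO replicate 1 (0.0531) or without released replicate 2 (0.0612). Leaving out any 1 array gave 5 to 8 higher genes.

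In the Nodal and activin list 6 of 20 measured genes were higher and 2 lower (40% called, against 8.66% of all genes), with a median of 0.070. The higher ones included the ligand subunit gene Inhbb, the activin-binding antagonist Fst, at 8.36, 8.43 and 8.32 against 8.0, 7.91 and 7.85 (0.45 ± 0.061), and the SMAD corepressor Skil. Skil read 8.25, 8.20 and 8.30 with DMSO, 8.88 and 8.89 with the inhibitor, and 8.91, 8.95 and 8.95 after release (0.69 ± 0.054; limma adjusted p = 8.98e-05). Nodal (0.08), its coreceptor Tdgf1 (0.09) and its antagonist Lefty2 (-0.08) did not pass. Lefty2 had been at 5.24 and 5.30 in the inhibitor and read 9.29, 9.32 and 9.45 after release against 9.39, 9.45 and 9.45 with DMSO. Lefty1 was lower (-0.43 ± 0.087; limma adjusted p = 0.0144), a call that ended without DMSO replicate 2 (0.0534) or released replicate 2 (0.0552). Leaving out any 1 array gave 3 to 5 higher and 0 to 2 lower genes.

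The Id genes, which encode inhibitors of basic helix-loop-helix factors and are targets of BMP, went in opposite directions. Id2 read 6.63, 6.74 and 6.58 with DMSO, 8.47 and 8.39 with the inhibitor, and 5.73, 5.57 and 5.52 after release, 2.06-fold below DMSO (-1.04 ± 0.073; limma adjusted p = 4.95e-05). Id3 read 6.59, 6.60 and 6.46 with DMSO, 4.11 and 4.14 with the inhibitor, and 7.22, 7.45 and 7.38 after release, 1.74-fold above DMSO (0.80 ± 0.072; limma adjusted p = 0.000199). Both had thus moved past the DMSO level on withdrawal, each from the other side. Id4 was slightly higher (0.29 ± 0.053), and Id1 did not pass (-0.10). The ligand gene Bmp4 rose from 4.22, 4.39 and 4.12 to 5.18, 4.98 and 4.93 (0.79 ± 0.087). Of 20 measured genes in the BMP list 5 were higher and 2 lower (35% called, against 8.66% of all genes). Their median was 0.052.

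Of 19 measured Wnt targets, 6 were higher and 0 lower (31.6% called, against 8.66% of all genes), with a median of 0.12. Cdx1, a caudal homeobox gene, read 6.26, 6.25 and 6.26 with DMSO, 4.65 and 4.73 with the inhibitor, and 6.83, 6.88 and 7.12 after release (0.69 ± 0.079; limma adjusted p = 0.000752), and Bmp4 counts here too. The others were closer to the threshold. Lef1 (0.37 ± 0.084) did not pass without DMSO replicate 1 (0.074) or released replicate 1 (0.0579) or 3 (0.0793), and Nkx1-2 (0.48 ± 0.11), Dkk1 (0.43 ± 0.11) and Ccnd1 (0.25 ± 0.066) lost their calls under 8, 12 and 10 alternatives. The number of higher genes ran from 2 to 7 when any 1 array was left out. Axin2, the widely used Wnt feedback gene, differed by 0.02 and did not pass.

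Among 27 keratin and epithelial junction genes measured, 10 were lower, 4 higher and 13 did not pass (51.9% called, against 8.66% of all genes). Their median was -0.13, and leaving out any 1 array gave 9 to 10 lower and 2 to 4 higher. Krt7, a simple epithelial keratin, read 5.81, 6.17 and 6.01 with DMSO, 7.18 and 7.01 with the inhibitor, and 4.32, 4.99 and 5.06 after release (-1.21 ± 0.18; limma adjusted p = 0.00293). The claudin gene Cldn7, a component of tight junctions, read 7.43, 7.73 and 7.60 with DMSO, 9.05 and 8.96 with the inhibitor, and 6.31, 6.59 and 6.42 after release (-1.15 ± 0.094; limma adjusted p = 0.00011). The cell adhesion gene Epcam (-0.52 ± 0.057), the 14-3-3 sigma gene Sfn (-0.52 ± 0.065), Cldn4 (-0.44 ± 0.066), the plakophilin gene Pkp2 (-0.54 ± 0.071) and the splicing regulator Esrp1 (-0.59 ± 0.089) were lower as well. Dsp, the desmosomal linker desmoplakin, was lower (-0.93 ± 0.12), but its sign turned with the probe set of lowest spread (0.0024; limma adjusted p = 0.985). Krt18 and occludin, Ocln (0.39 ± 0.070), were higher. Krt8, the usual partner of Krt18, was at 6.81, 6.87 and 6.72 against 6.78, 6.85 and 6.64 with DMSO and did not pass (0.04 ± 0.077), after 10.09 and 9.90 in the inhibitor. Tfap2c, a transcription factor of trophectoderm and germ cells, fell from 9.13, 9.31 and 9.32 to 7.99, 8.27 and 8.27 (-1.08 ± 0.089; limma adjusted p = 0.000116). Of 19 trophectoderm markers measured, 1 was higher and 3 lower (21.1% called). Their mean level was 5.13 to 5.23 on DMSO arrays, 6.13 to 6.16 with the inhibitor and 5.12 to 5.22 on released arrays.

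Annexins and S100 proteins are calcium-dependent membrane and regulatory proteins, and their list here also holds galectin, thymosin and Crip genes. Of its 23 measured members 8 were higher, among them Lgals1, Lgals3 and Tmsb4x, and 3 were lower, among them Crip1. That is 47.8% called, against 8.66% of all genes, with a median of 0.042. The calls of Lgals3 and Crip1 ended under 5 and 10 alternatives. S100a6 read 5.26, 5.03 and 4.88 with DMSO, 9.41 and 9.22 with the inhibitor, and 5.82, 5.98 and 5.96 after release (0.87 ± 0.10; limma adjusted p = 0.000793). Anxa1 was still close to its inhibitor level, at 8.13, 8.22 and 8.22 after release, 8.39 and 8.37 with the inhibitor, and 7.47, 7.55 and 7.38 with DMSO (0.73 ± 0.063). S100a1 had gone below DMSO, at 6.64, 6.85 and 6.92 against 7.66, 7.69 and 7.46, after 9.91 and 9.95 in the inhibitor (-0.80 ± 0.088). S100a13 was lower after release only (-0.85 ± 0.071), its values in the inhibitor being 9.63 and 9.65 against 9.48, 9.68 and 9.53 with DMSO. Lgals1, which encodes a galectin, was higher (0.45 ± 0.065).

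Of 35 measured genes of oxidative defence and detoxification, 8 were lower, 1 higher and 26 did not pass (25.7% called, against 8.66% of all genes). Their median was -0.079, and leaving out any 1 array gave 6 to 8 lower. Gstm5, a glutathione transferase, read 6.20, 6.30 and 6.23 with DMSO, 7.37 and 7.10 with the inhibitor, and 4.42, 4.83 and 4.89 after release, 2.89-fold below DMSO (-1.53 ± 0.12; limma adjusted p = 8.98e-05). Gpx2, a glutathione peroxidase, read 10.17, 10.31 and 10.26 with DMSO, 10.93 and 10.78 with the inhibitor, and 9.24, 9.23 and 9.34 after release (-0.98 ± 0.067; limma adjusted p = 4.17e-05). The xenobiotic oxidase gene Cyp1a1 (-0.64 ± 0.11), the carbonyl reductase gene Cbr3 (-0.36 ± 0.053) and the transferases Gstm1 (-0.44 ± 0.072) and Gstm2 (-0.40 ± 0.063) were lower too. Of these, Gstm5, Gpx2, Cyp1a1, Cbr3 and Gstm1 had been above DMSO in the inhibitor. Gstm genes are close copies of each other, and probes could in part read more than 1 of them. The exception was Me1, malic enzyme, which was higher (0.27 ± 0.062), a call that ended under 7 alternatives.

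Several stress genes that were above DMSO in the inhibitor were below it after release. Trib3, a pseudokinase gene of the integrated stress response, read 8.17, 8.25 and 8.03 with DMSO, 9.99 and 9.95 with the inhibitor, and 7.70, 7.77 and 7.71 after release (-0.42 ± 0.067; limma adjusted p = 0.00432). Ddit4, an inhibitor of mTORC1, followed the same course with 8.78, 8.94 and 8.90 after release against 9.14, 9.34 and 9.26 (-0.37 ± 0.071). Gadd45a (-0.42 ± 0.079), a growth arrest gene, Xbp1 (-0.35 ± 0.068), a factor of the unfolded protein response, and Hspb8 (-0.45 ± 0.063), a small heat shock protein gene, were lower, and Sesn1, a stress-induced regulator of mTORC1 (0.39 ± 0.061), was higher. Gabarapl2, of the lysosome and autophagy list, was higher as well (0.53; limma adjusted p = 0.000988). Vldlr, of the integrated stress list, also rose (0.56; limma adjusted p = 0.0224), but its call ended under 6 alternatives. Over whole lists, in the order given next, the shares called were 16.1%, 10.7%, 17.2% and 11.1%, against 8.66% of all genes. There were 2 higher and 3 lower of 31 for the amino acid and integrated stress response, 1 and 2 of 28 for heat shock and the unfolded protein response, 2 and 3 of 29 for CDK inhibitors and p53 targets, and 1 and 3 of 36 for lysosome and autophagy. Gpnmb, the lysosomal glycoprotein gene that had stood at 11.35 and 11.39 in the inhibitor, read 5.0, 5.32 and 5.19 after release against 5.23, 5.02 and 5.32 with DMSO (-0.02 ± 0.098; limma adjusted p = 0.946).

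Several genes of DNA methylation, imprinting and the germline differed between released and DMSO cells. Tet2, which oxidises methylcytosine, read 8.96, 8.96 and 9.05 with DMSO, 9.02 and 9.07 with the inhibitor, and 9.90, 9.85 and 9.85 after release (0.88 ± 0.055; limma adjusted p = 2.91e-05). Dnmt1 (0.03), Dnmt3a (0.08), Dnmt3b (0.09), Uhrf1 (0.05) and Tet1 (0.05) did not pass. Over the list of 15 measured writers and erasers, 3 were higher and 1 was lower (26.7% called, against 8.66% of all genes). Among chromatin modifiers, the Polycomb gene Bmi1 was lower (-0.41 ± 0.060) and the histone demethylase gene Kdm5b higher (0.42 ± 0.077).

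Of 35 measured imprinted genes, 6 were higher and 5 lower (31.4% called, against 8.66% of all genes), with a median of 0.049. The maternally expressed noncoding RNAs Rian and Mirg, of the Dlk1-Dio3 domain on chromosome 12, were lower. Rian read 10.75, 10.62 and 10.81 with DMSO, 11.26 and 11.17 with the inhibitor, and 9.95, 9.97 and 9.97 after release (-0.77 ± 0.064; limma adjusted p = 0.000119), and Mirg 7.59, 7.88 and 7.62, 8.06 and 7.97, and 6.88, 6.79 and 6.97 (-0.81 ± 0.087). Meg3, at the start of the same cluster, fell by less (-0.30 ± 0.061; limma adjusted p = 0.0147) and did not pass without DMSO replicate 2 (0.0500) or released replicate 1 (0.0532). In GRCm38.p6 they span chr12:109540996-109571729 (Meg3), chr12:109603945-109661716 (Rian) and chr12:109734981-109749458 (Mirg). Dlk1, the paternally expressed gene of this domain, did not pass (0.19). Grb10, an adaptor that restrains insulin signalling, read 7.68, 7.70 and 7.81 with DMSO, 9.42 and 9.50 with the inhibitor, and 8.79, 8.53 and 8.74 after release (0.95 ± 0.079; limma adjusted p = 0.000113). Leaving out any 1 array gave 4 to 6 higher and 2 to 4 lower imprinted genes.

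Of 29 germline genes measured, 4 were higher and 3 lower (24.1% called, against 8.66% of all genes). Dmrt1, a factor of germ cell development, read 6.24, 6.34 and 6.31 with DMSO, 7.13 and 7.07 with the inhibitor, and 5.37, 5.22 and 5.29 after release (-1.01 ± 0.062; limma adjusted p = 2.91e-05). Stk31 was higher at 5.52, 5.79 and 5.28 against 4.80, 4.63 and 4.53 (0.88 ± 0.12), as was the piRNA pathway gene Tdrd12 (0.49 ± 0.069). The reproductive homeobox genes of the Rhox cluster on the X chromosome split, Rhox5 being higher (0.41 ± 0.058) and Rhox6 (-0.65 ± 0.11) and Rhox9 (-0.60 ± 0.095) lower. Rhox6 and Rhox9 are similar in sequence, and their probes could read each other's transcripts in part.

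Most lists of growth and division genes had a share called below the 8.66% of all genes tested. For DNA replication and ribosome biogenesis it was 0% and 2.13%. For cytosolic ribosomal proteins, G2 and mitosis, and nucleotide synthesis it was 5.41%, 6.45% and 6.67%, closer to the share of all genes. Among 12 measured G1 cyclins and their kinases, 1 was higher and 1 lower (16.7%). Of 37 DNA replication genes measured, 0 were higher and 0 lower by limma (7 and 3 at an unadjusted p under 0.05), and their differences ran from -0.19 for Rfc4 to 0.21 for Gins3. Of 31 genes of G2 and mitosis, 2 were higher and 0 lower by limma (10 and 2 at an unadjusted p under 0.05). The higher genes were Prc1 (0.25 ± 0.056; limma adjusted p = 0.0229) and Knl1 (0.26 ± 0.066; limma adjusted p = 0.0404), whose calls ended under 5 and 11 alternatives. This list had a median of 0.075. In 16 of the 31 genes every released array lay above every DMSO array, and in 3 below. Over all genes tested, the arrays were apart in 28.6%, and 4114 of 18193 had an unadjusted limma p under 0.05. Of 47 ribosome biogenesis genes, 0 were higher and 1 was lower, Nop16 (-0.27 ± 0.059; limma adjusted p = 0.0219), with a call that ended under 7 alternatives. Of 37 cytosolic ribosomal protein genes 2 were higher, of 30 nucleotide synthesis genes 2 were higher, and none of either list was lower at this threshold. Of 21 BCL2 family and apoptosis genes, 0 were higher and 0 lower by limma (4 and 3 at an unadjusted p under 0.05).

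Myc itself was modestly higher after release. It read 5.81, 6.04 and 5.91 with DMSO, 5.69 and 5.82 with the inhibitor, and 6.49, 6.23 and 6.67 after release, and the released arrays lay above all others (0.54 ± 0.11; limma adjusted p = 0.0148). The call ended without DMSO replicate 1 (0.0580) and without released replicate 1 (0.0513). Mycn (-0.14 ± 0.056; limma adjusted p = 0.177) and Max (-0.05 ± 0.067; 0.694) did not pass. Since the compound acts on proteins, these transcripts do not check the labels. Of the 13 measured genes of the MYC, MAX and MXD network, 2 were higher and 0 lower (15.4% called, against 8.66% of all genes). Besides Myc, the higher gene was Mga (0.28 ± 0.061; limma adjusted p = 0.0216), whose call ended under 6 alternatives.

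**Figure D5:**
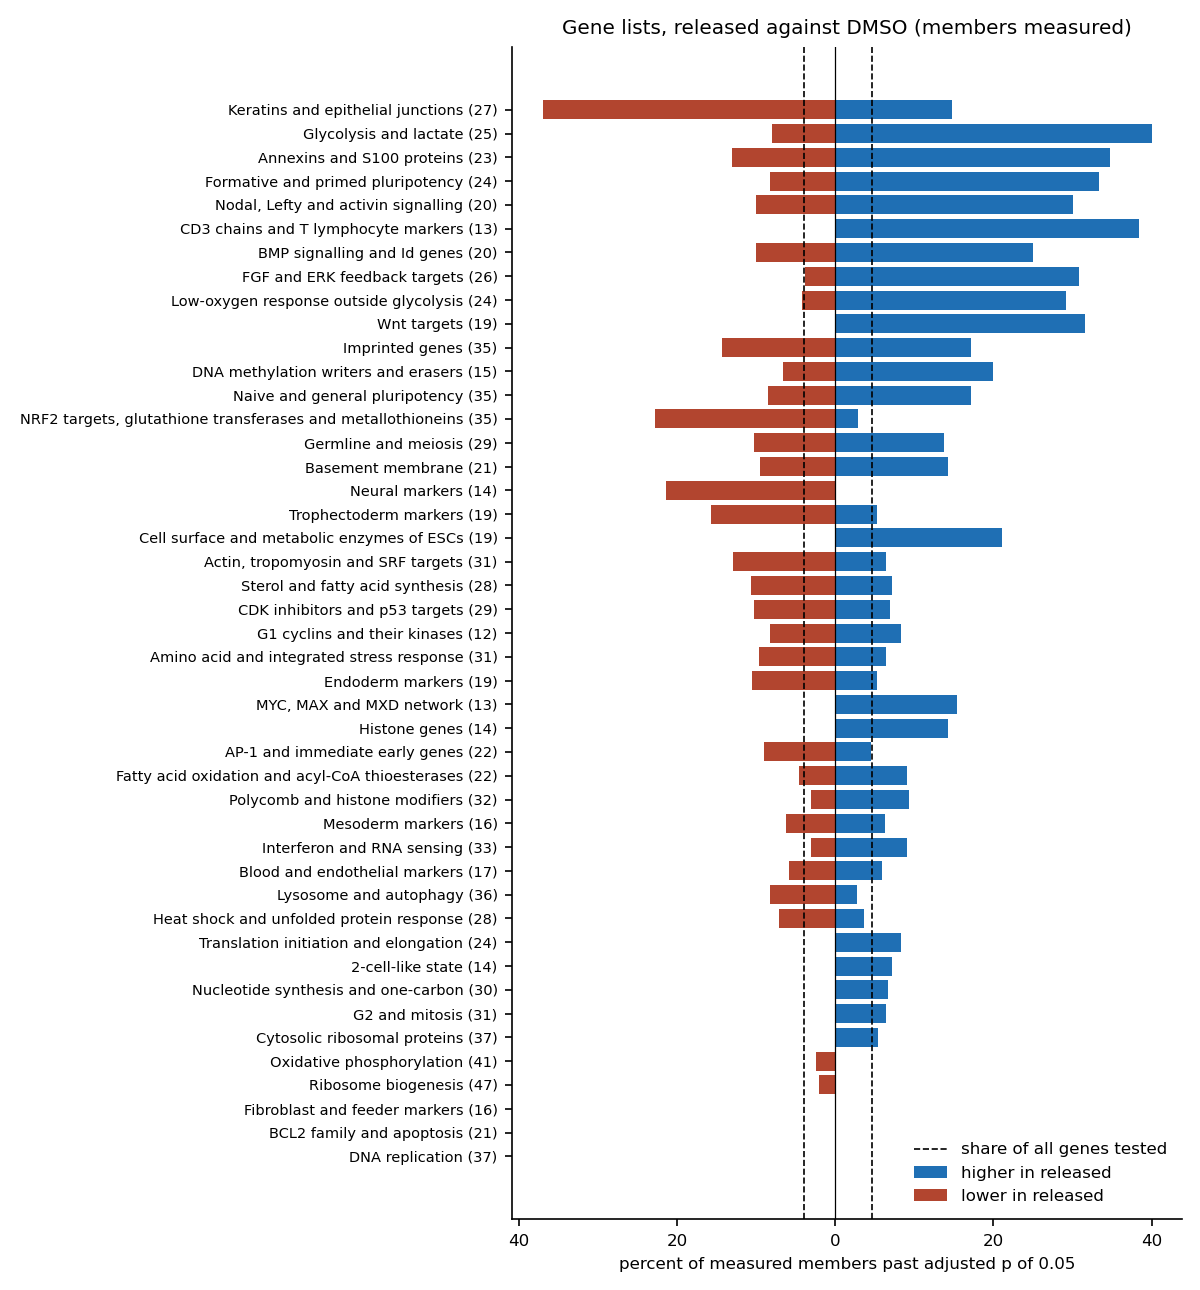
For each gene list, the percent of its measured members (their number in brackets) that were higher (blue, to the right) or lower (red, to the left) in released than in DMSO cells at a limma adjusted p of 0.05. Dashed lines mark the shares over all genes tested, 4.66% higher and 4.01% lower; glycolysis, with 10 of 25 higher, lies far to the right, keratins and epithelial junctions, with 10 of 27 lower, far to the left, and DNA replication, apoptosis and fibroblast markers have no bar.

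Of 19 endoderm markers 1 was higher and 2 lower, of 16 mesoderm markers 1 and 1, of 14 neural markers 0 and 3, and of 17 blood and endothelial markers 1 and 1. The shares called were 15.8%, 12.5%, 21.4% and 11.8%, against 8.66% of all genes. The basement membrane genes in the endoderm list split, with Lamb1 higher (0.43 ± 0.061) and Lama1 (-0.46 ± 0.076) and Sparc (-0.31 ± 0.057) lower, all of them laminin chains or matrix proteins. Tubb3, a tubulin abundant in neurons, read 7.65, 7.70 and 7.53 with DMSO, 6.29 and 6.18 with the inhibitor, and 7.05, 7.20 and 7.08 after release (-0.52 ± 0.070; limma adjusted p = 0.00193). Tek, an angiopoietin receptor gene, was lower (-0.58 ± 0.068) and Cd68, a lysosomal gene of macrophages and other cells, higher (0.58 ± 0.10). The mean level of the neural list was 4.74 to 4.88 on DMSO arrays and 4.66 to 4.72 on released arrays, and the ranges of the other 3 lists overlapped between the groups, with 4.64 to 4.66 and 4.61 to 4.69 for endoderm.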

How the data were processed

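Biotin-labelled cRNA was hybridised to Affymetrix GeneChip arrays, 1 per sample. The deposited values are log2 values per probe set, read as log2 from their range of 1.69 to 13.76, since no label states the scale. RMA, oligo 1.32.0 and limma 3.2.15 are named in the submitters' processing notes. RMA equalises the distribution between arrays, so a change shared by most genes is not visible. Arrays have no read depth, and their number limits the precision (median standard error 0.0741).

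Of 45101 probe sets, 34945 had 1 symbol in the platform annotation, and the one with the highest mean over 8 arrays stood for each of 18193 genes. All 8 arrays entered 1 limma 3.58.1 fit (lmFit and eBayes, R 4.3.3), with two-sided p-values adjusted by Benjamini-Hochberg over all genes and a threshold of 0.05. In data simulated for 18193 genes with independent normal noise, 200 genes were changed in the released group only. There the fit recovered 71% of log2 changes of 0.5 and 99% of log2 changes of 1, with 2.86% false among calls. The reported calls are more numerous (1576), with a median absolute log2 difference of 0.37, so these rates need not hold for them. The members, the 45 gene lists and the naming rule were chosen with earlier results of these data known. Named were the 15 largest rises and falls, up to 6 called members per list (up to 2 with the smallest p where none passed), and Myc with its partners and 6 core pluripotency genes; genes beyond this rule were chosen after their values were seen. Lists are described by counts and medians, with no set test. Alternatives changed the probe set (the mean of all or the one of lowest spread) or the scaling, or applied a level filter. Others were limma options, stricter thresholds, a replicate block and leaving out each array. Sequences and positions are RefSeq's (GRCm38.p6), and Python 3.11.15 drew the figures.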

Additional observations from a re-analysis of the deposited data

Results flagged for a closer look

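Probe sets outside the gene comparison also differed between released and DMSO cells. Of 9160 probe sets with no gene name here, fitted separately with the same limma model, 298 were higher and 39 lower at an adjusted p of 0.05, and 88.4% of the calls were thus higher. With median centring on the tested genes the counts were 241 and 38, and leaving out any 1 array gave 149 to 340 higher and 18 to 30 lower. The median difference of these probe sets was 0.03 against 0.0018 over named genes. Of 932 probe sets with several gene symbols, 27 were higher and 6 lower. The largest difference among them was that of 1435948_at, which read 5.95, 5.89 and 5.56 with DMSO, 7.82 and 7.80 with the inhibitor, and 7.61, 7.63 and 7.56 after release (1.80 ± 0.10; limma adjusted p = 1.79e-05). Among unnamed probe sets 1419304_at rose most (1.54 ± 0.13) and 1437397_at fell most (-1.30 ± 0.14). The cause of the excess of higher unnamed probe sets was not tested.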

How the results depend on the processing

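The reported fit called 1576 genes, 847 higher and 729 lower. A variance trend with robust fitting called 2641 (1382 and 1259), an adjusted p under 0.01 called 657 (351 and 306), a minimum of 1.5-fold 270 (140 and 130), and Holm adjustment 128 (66 and 62). Leaving out any 1 array gave 1000 to 1344 genes in all, 498 to 720 higher and 432 to 624 lower. Same-numbered DMSO and released arrays did not deviate together (correlations of 0.014, -0.004 and -0.056). No shared replicate effect was thus visible, but whether same-numbered samples were handled together cannot be told from this. The fit with the replicate block called 1180 genes (632 and 548), of which 1128 were shared with the reported calls. Of the genes shared with the reported calls, 2 had the opposite sign with the probe set of lowest spread, and under the other alternatives run 0 had. With that probe set the differences of Igf2 (-0.0086), Bach2 (-0.029), Emp1 (-0.040), Ccnd3 (0.054) and Dsp (0.0024) turned sign, and with the mean of all probe sets those of Atp6v1h (0.042), Bmpr2 (-0.0030) and Rsad2 (-0.0041); the cause was not tested. Of 171 named genes called, 100 passed under all 18 alternatives that keep the threshold, and 71 did not. Of these 71, 22 were lost only with the mean of all probe sets or the probe set of lowest spread. When every probe set was tested, 12 of 1865 genes had probe sets called in opposite directions.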

Other observations

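Malat1, a nuclear noncoding RNA chosen after its values were seen, was on no list. It read 9.72, 10.08 and 9.93 with DMSO, 11.01 and 10.78 with the inhibitor, and 11.05, 10.91 and 10.87 after release (1.04 ± 0.10; limma adjusted p = 0.000293), and its difference from the inhibitor-treated cells did not pass (0.05 ± 0.11; limma adjusted p = 0.77).

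The small lists of cholesterol and lipid genes were mixed. Of 28 measured genes of sterol and fatty acid synthesis, 2 were higher and 3 lower (17.9% called, against 8.66% of all genes). Hmgcs1, an early enzyme of cholesterol synthesis, was higher (0.30 ± 0.058) and Pmvk, a later one, lower at 7.57, 7.53 and 7.59 against 7.93, 7.94 and 7.95 (-0.38 ± 0.052; limma adjusted p = 0.00207). Among 19 genes of the ESC surface and metabolism, 4 were higher and 0 lower (21.1% called, against 8.66% of all genes). These were Calcoco2 (0.39 ± 0.057), an autophagy receptor gene, Pla2g10 (0.51 ± 0.079), a secreted phospholipase gene, Ooep (0.39 ± 0.063), an oocyte and embryo gene, and the lysosomal mannosidase gene Manba (0.37 ± 0.069), and all 4 had been below DMSO in the inhibitor. Of 33 genes of interferon and RNA sensing 3 were higher and 1 lower (12.1% called). The class I histocompatibility gene H2-D1 was at 7.28, 7.27 and 7.26 after release against 6.72, 6.84 and 6.52 (0.57 ± 0.083; limma adjusted p = 0.00263).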
